A study of Mus musculus with 6 samples.

Results

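Leydig and interstitial cell genes are the 10 genes Insl3, Star, Cyp11a1, Cyp17a1, Hsd3b1, Lhcgr, Nr2f2, Pdgfra, Pdgfrb and Acta2, out of 21751 protein-coding genes annotated in the mouse. They were chosen by name, and an interval was counted for a gene when the deposited annotation tied it to 1 of that gene's transcripts, as the nearest promoter or as the annotated feature. Of the 75330 intervals in the 4 lists used, 24 met this rule. The lists come from CUT&RUN, in which an antibody guides a nuclease that releases the DNA around its target for sequencing, on prospermatogonia, the germ cells in the cords of a fetal testis. Antibodies against TAF4b, a gonad-enriched component of the TFIID complex that helps start transcription, and against H3K4me3, a histone mark of promoters, were each used in 2 replicates, and the 2 IgG libraries of the remaining group were not analysed here.

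All groups had the same description: male C57BL/6 embryos at E16.5 (embryonic day), Taf4b-wildtype, from matings of mice homozygous for an Oct4-EGFP transgene, with gonad cells sorted by green fluorescence after dead cells were discarded. The gate was set against a gonad without the transgene. The labels do not say how many embryos went into a library or whether the 2 replicates came from separate animals. Expression was not measured, and every value below is the position, width or score of a listed interval. In a sorted pool, a region marked in a few cells and a region marked weakly in all of them cannot be told apart.

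Leydig cells lie between the seminiferous cords. They answer luteinizing hormone through its receptor, move cholesterol into mitochondria and convert it to androgens, and in the fetus they also secrete INSL3, which guides testis descent. The interstitium around them holds progenitors and stromal cells that carry receptors for platelet-derived growth factor, and contractile cells rich in smooth muscle actin. None of these is a germ cell, so these genes show how H3K4me3 and TAF4b lie at promoters of genes named for neighbouring cells. Whether germ cells also use any of them was not measured.

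Replicate 2 stood apart for both antibodies before any gene was considered. H3K4me3 replicate 1 held 64891 regions and replicate 2 held 1730, while TAF4b replicate 1 held 7861 peaks and replicate 2 held 848. Neither replicate 2 list held an interval of any of the 10 genes, against 7.46% of protein-coding genes with a row in H3K4me3 replicate 2 and 3.82% with one in TAF4b replicate 2. The results below therefore rest on 1 library per antibody and have no replicate check. The depth is unknown because the lists carry no read totals, and a gene without an interval is one at which none was listed, not one shown to lack the mark or the factor.

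In H3K4me3 replicate 1, 7 of the 10 genes had at least 1 region, beside 78.4% of protein-coding genes. They were Insl3, Cyp11a1, Lhcgr, Nr2f2, Pdgfra, Pdgfrb and Acta2, with 23 regions between them. Star, Cyp17a1 and Hsd3b1 had none. By the deposited promoter-TSS class, which spans 1000 bp before to 100 bp after a transcription start site (TSS), the count was 5 of 10 (Insl3, Nr2f2, Pdgfra, Pdgfrb and Acta2), beside 44.0% of protein-coding genes. When a region within 1000 bp of any annotated TSS of the gene was counted instead, Lhcgr joined these 5, giving 6 of 10 beside 72.0%. By each of these 3 rules the share of the 10 genes was near that of all protein-coding genes.

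In TAF4b replicate 1 a single peak belonged to the 10 genes, and it lay at Nr2f2. That is 1 of 10 genes beside 29.0% of protein-coding genes with any TAF4b row. The peak was within 1000 bp of an annotated TSS (1 of 10, beside 29.0% by that rule) but did not fall in the promoter-TSS class (0 of 10, beside 22.7%). Of the 7 genes with any H3K4me3 row, 1 had a TAF4b row, whereas 35.5% of all protein-coding genes with an H3K4me3 row did. Of the 6 with H3K4me3 within 1000 bp of a TSS, 1 had TAF4b there, beside 39.5% of such genes. TAF4b was thus listed at fewer of these genes than the background share, which with 10 genes is a description only.

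**Figure D1:**
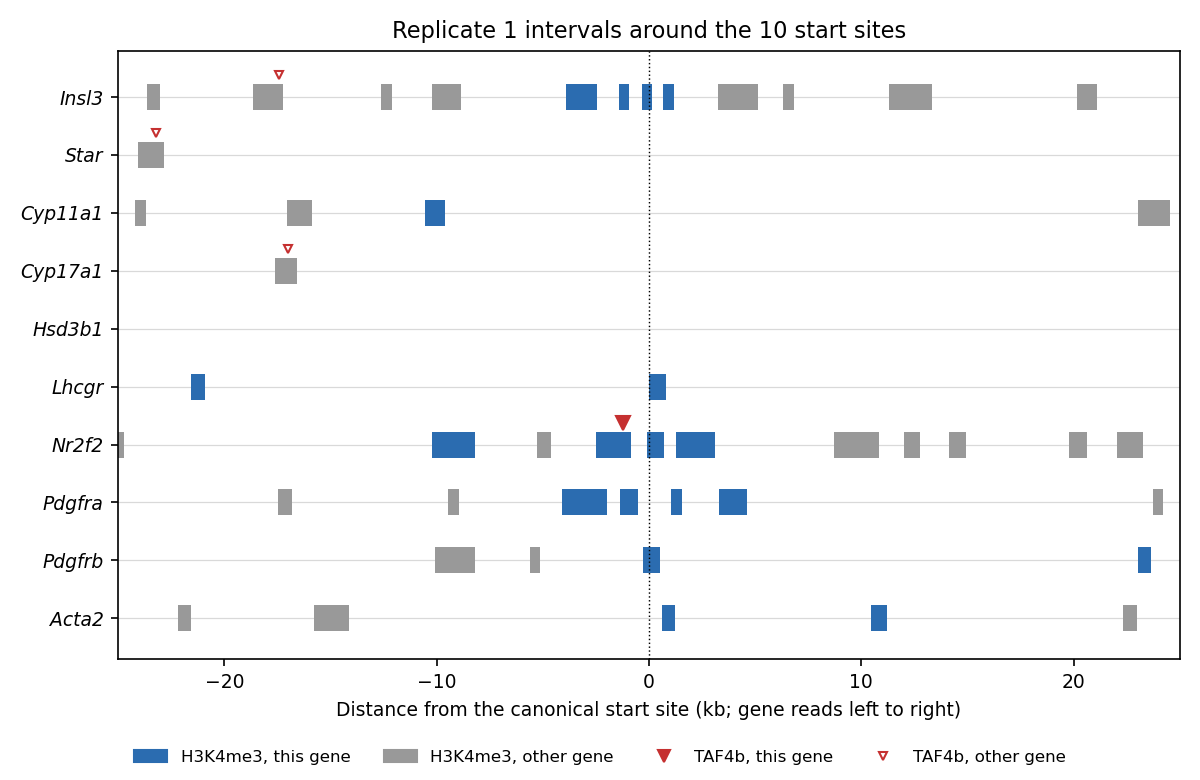
Intervals of replicate 1 within 25 kb of the canonical TSS of each of the 10 genes, with distance in kb on the horizontal axis and each gene drawn to read left to right. Filled bars are H3K4me3 regions and triangles TAF4b peaks, coloured where the deposited annotation ties them to the gene and grey or open where it does not; the canonical TSS of Star, Cyp11a1, Cyp17a1 and Hsd3b1 stand in stretches without H3K4me3, and the filled triangle is the Nr2f2 peak.

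The sequences below show the single TAF4b peak and the 200 bases before the start of a marked gene (Lhcgr) and of 2 steroid enzyme genes without H3K4me3 at the TSS (Cyp11a1 and Hsd3b1). The start used was the outermost annotated one within 100 bp of the canonical TSS, which is the canonical TSS itself for Lhcgr and Cyp11a1 and lies 6 bp upstream of it for Hsd3b1. They are printed to show the CG dinucleotides, in capitals, that are counted next. All are read 5′ to 3′ on the gene's strand from GRCm39. The Nr2f2 peak is chr7:70011494-70011636 on the minus strand, Lhcgr is chr17:89099474-89099673 on the minus strand, Cyp11a1 is chr9:57921666-57921865 on the plus strand and Hsd3b1 is chr3:98767117-98767316 on the minus strand.
Nr2f2 TAF4b peak: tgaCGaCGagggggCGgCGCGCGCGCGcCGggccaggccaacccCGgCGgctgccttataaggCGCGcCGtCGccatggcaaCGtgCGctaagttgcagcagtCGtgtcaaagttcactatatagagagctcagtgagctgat
Lhcgr upstream: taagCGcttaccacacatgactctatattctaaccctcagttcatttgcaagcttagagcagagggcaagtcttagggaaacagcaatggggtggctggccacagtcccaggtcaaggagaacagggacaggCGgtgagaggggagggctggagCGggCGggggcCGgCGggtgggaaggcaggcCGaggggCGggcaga
Cyp11a1 upstream: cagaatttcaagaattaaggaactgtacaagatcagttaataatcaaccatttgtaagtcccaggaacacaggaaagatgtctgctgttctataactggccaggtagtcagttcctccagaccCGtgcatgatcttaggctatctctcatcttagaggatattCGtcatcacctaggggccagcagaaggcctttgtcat
Hsd3b1 upstream: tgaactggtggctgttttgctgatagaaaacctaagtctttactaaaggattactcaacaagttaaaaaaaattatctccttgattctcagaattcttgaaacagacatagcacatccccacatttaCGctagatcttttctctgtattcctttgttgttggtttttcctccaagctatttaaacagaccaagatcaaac

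The Nr2f2 peak held 18 CG dinucleotides in 143 bases, with a GC content of 64.3%. The Lhcgr window held 8 in 200 bases, the Cyp11a1 window 2 and the Hsd3b1 window 1. Windows of the same length before the canonical TSS of Acta2 and before a Pdgfra start 88 bp upstream of its canonical TSS held 3 and 4. With so few windows these counts are a description only. Over all 7861 TAF4b peaks of replicate 1 the median was 11 CG dinucleotides and 62.9% GC, and 14.1% of peaks held at least 18.

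The INSL3 peptide is the hormone of the set. Insl3 (chr8:72141858-72143225, plus strand) had 4 H3K4me3 regions in replicate 1. The region over its only annotated TSS, chr8:72141505-72142005, had the minimum listed width of 500 bp and a score of 26.8, rank 50213 of 64891. A second 500-bp region (score 32.8) lay before it, and another (score 29.8) lay 925 bp downstream at the end of B3gnt3. All 3 were narrow and low in the list.

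The strongest Insl3 region was at chr8:72137947-72139403, within an exon of the neighbouring gene Jak3, at a deposited distance of -3183 bp from the TSS. It was 1456 bp wide with a score of 134.2, rank 3994, and 15.2% of all regions and 36.3% of promoter-class regions were at least as wide. All of Insl3 lies within the annotated span of Jak3, a kinase gene of cytokine signalling, and a region in their overlap cannot be assigned to either gene. No TAF4b peak was tied to Insl3, and the nearest, at Unc13a, was 17.3 kb away.

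The 4 genes of cholesterol entry and steroid conversion had no H3K4me3 within 5 kb of their canonical TSS. Star (chr8:26296583-26306010) encodes the protein that carries cholesterol to the inner mitochondrial membrane. Its nearest H3K4me3 region, at Lsm1, was 22.8 kb from the TSS. Of protein-coding genes, 87.2% had a region at least as near. Its nearest TAF4b peak, at Bag4, was 23.1 kb away.

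Cyp11a1 (gene at chr9:57913694-57935933) encodes the enzyme that cleaves the cholesterol side chain, the first step of steroid synthesis. Its 1 region, chr9:57911295-57912236, was 941 bp wide with a score of 53.7, rank 27088, and lay in an intron of Gm17322. It was tied to Cyp11a1 through an upstream transcript, at -1929 bp from that transcript's start. The canonical TSS at 57921866 was 9.63 kb from the edge of this region, so the row counts for the gene by annotation and not by position at the main promoter. The nearest TAF4b peak, at Sema7a, was 74.4 kb from the canonical TSS.

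Cyp17a1 (chr19:46655604-46661611), the enzyme that turns pregnane steroids into androgen precursors, had its nearest H3K4me3 region 16.6 kb away and its nearest TAF4b peak 16.9 kb away, both at Borcs7. Hsd3b1 (chr3:98757367-98767116), which oxidises the steroid ring in the same pathway, was the most isolated. Its nearest H3K4me3 region was 25.5 kb away, at Gm12431, and 88.2% of protein-coding genes had one at least as near. Its nearest TAF4b peak was 281 kb away, against a median of 45.9 kb over protein-coding genes. Star, Cyp17a1, Insl3, Nr2f2 and Pdgfra lay nearer to a TAF4b peak than that median. Cyp11a1, Lhcgr, Pdgfrb and Acta2 lay farther, as did Hsd3b1. The 3 genes without a region thus had their nearest H3K4me3 at other genes, 16.6 to 25.5 kb away.

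Lhcgr (chr17:89023909-89099473, minus strand) encodes the luteinizing hormone receptor. The region over its canonical TSS, chr17:89098672-89099484, was 812 bp wide and scored 43.2, rank 34586 of 64891, and 46.3% of all regions were at least as wide. Its centre fell in the first intron, so it was not in the promoter-TSS class although it covers the TSS. In the body of the gene, 2 intronic regions of 779 and 783 bp scored 50.7 and 53.7, above the region at the start. Upstream, 2 intergenic regions of 688 and 630 bp scored 29.8 and 28.3, at deposited distances of -21302 and -28127 bp. The width at the Lhcgr TSS was thus near the median of 779 bp over all regions but on the narrow side of promoter-class regions, of which 70.6% were at least as wide. The nearest TAF4b peak, at Ston1, was 139 kb away.

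Nr2f2 (chr7:70001692-70016519, minus strand) encodes COUP-TFII, a nuclear receptor found in interstitial progenitors and stromal cells. It had 4 regions, of which 3 lay close together around the start. The region over the canonical TSS at 70010341, chr7:70009655-70010427, was 772 bp wide with a score of 38.8. It was flanked by a region of 1833 bp (chr7:70007241-70009074, score 110.3, rank 7268), which holds an alternative Nr2f2 start, on the gene body side and one of 1623 bp (chr7:70011194-70012817, score 146.1, rank 2958) on the upstream side. The mark was thus wider and scored higher on both flanks than over the canonical TSS itself.

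The fourth Nr2f2 region, chr7:70018523-70020546, was 2023 bp wide and scored 211.7. This was the highest score among the 23 regions, rank 599 of 64891, and 5.07% of all regions and 13.4% of promoter-class regions were at least as wide. It lay in an intron of B130024G19Rik, a neighbouring gene. Besides Nr2f2 starts, the 1833-bp region holds one of B130024G19Rik and the 772-bp region one of Gm72772. The width of these is thus not that of the Nr2f2 promoter alone. The 1623-bp and 2023-bp regions hold no annotated start.

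The TAF4b peak of Nr2f2 lay wholly inside the 1623-bp region, with its centre 371 bp from the region's lower coordinate. Its score was 15.9, rank 3456 of 7861, and 46.0% of peaks scored at least as high. The deposited annotation placed it in an intron of a longer Nr2f2 transcript, at -1224 bp from the canonical TSS. A shorter annotated transcript starts at 70011083, and the centre of the peak was 482 bp upstream of that start. The peak was thus of middling score and lay nearer to an alternative start than to the canonical one.

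Short motifs were searched on both strands in the Nr2f2 peak and in all 7861 peaks. The peak held the GC box GGGCGG, as did 48.5% of all peaks. It held no CCAAT (39.5% of peaks), no TATAAA (1.87%) and no AAGGTCA, a site bound by the steroidogenic factor NR5A1 (1.07%). These letters describe the window and do not mark binding sites.

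The 2 receptors for platelet-derived growth factor differed from each other. Pdgfra (chr5:75311994-75358876, plus strand), carried by stromal and Leydig progenitor cells, had 5 regions. The widest of all 23, chr5:75308813-75310934, was 2121 bp wide with a score of 110.3. Of all regions, 4.08% were at least as wide, and of promoter-class regions 10.9%. It was intergenic, at a deposited distance of -3080 bp from Pdgfra.

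Nearer the Pdgfra start, regions of 841 bp (score 43.2) and 500 bp (score 25.3) fell in the promoter class, at deposited distances of -956 and -32 bp. Each held an annotated alternative start of Pdgfra, the 500-bp region also one of Gm42802, and neither covered the canonical TSS at 75312922, which was 504 bp from the nearest region. Downstream, a region of 1334 bp (score 99.9) was classed as the promoter of Gm42803 but holds an alternative Pdgfra start, and one of 1261 bp (score 95.4) lay in the last intron. Most of the mark at Pdgfra therefore lay to the sides of its main TSS, as at Nr2f2. The nearest TAF4b peak was 33.0 kb away.

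Pdgfrb (chr18:61178212-61218133, plus strand), typical of pericytes and stromal cells, had 2 regions. The region over the canonical TSS, chr18:61177920-61178738, was 818 bp wide and scored 44.7, and 45.8% of all regions and 70.1% of promoter-class regions were at least as wide. The other lay in an intron, 630 bp wide with a score of 37.3. The nearest TAF4b peak, at Slc26a2, was 166 kb away. The region at the Pdgfrb start was thus close in width and score to those nearest the Lhcgr and Pdgfra starts. No wider region was tied to Pdgfrb as there was to Pdgfra. A wider region at -10100 to -8208 bp from the Pdgfrb start was not tied to this gene.

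Acta2 (chr19:34217737-34232990, minus strand) encodes the smooth muscle actin of peritubular myoid and vascular wall cells. It had a region of 625 bp (chr19:34231763-34232388, score 26.8) in the promoter class of an alternative transcript, 602 bp from the canonical TSS. A region of 780 bp (score 49.2) lay at the annotated end of a transcript inside the gene. The canonical TSS of Acta2 was not covered. The nearest TAF4b peak, at Ch25h, was 220 kb away.

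**Figure D2:**
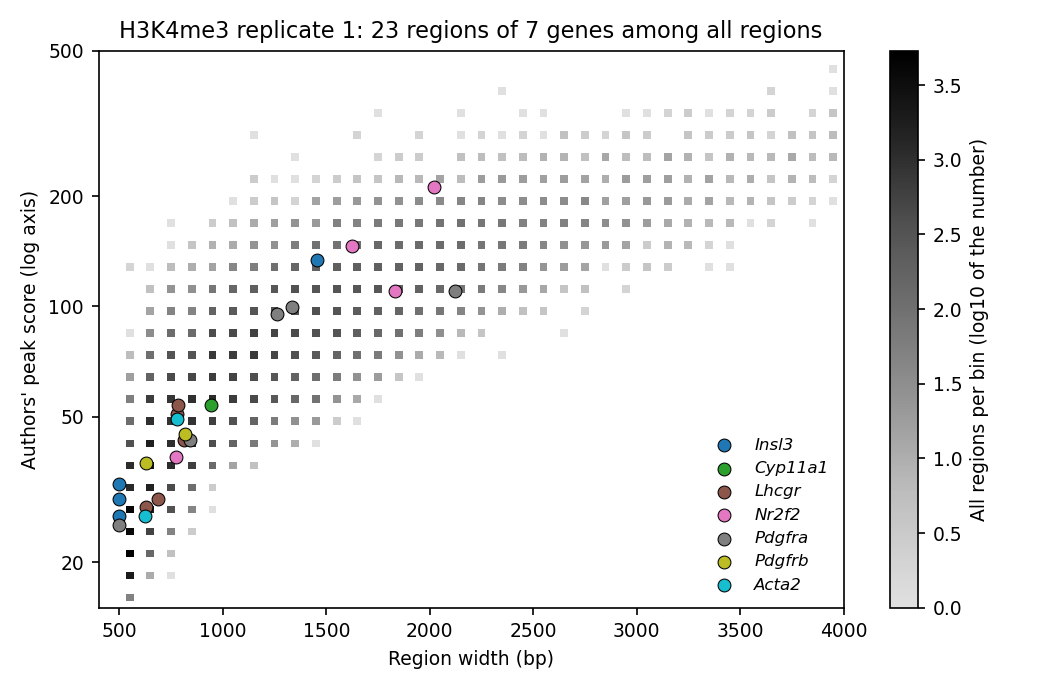
Width in bp (horizontal axis, drawn to 4000 bp, and the list reaches 6768 bp) against the authors' peak score (vertical axis, log scale) for H3K4me3 replicate 1. Grey squares are bins of all regions, darker where more regions fall, and coloured points are the 23 regions of the 7 genes; 3 regions of Nr2f2, 3 of Pdgfra and 1 of Insl3 reach 1261 bp or more and a score of 95.4 or more, and all others of the 23 lie at or below 941 bp and 53.7.

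Ranked by the widest region of each gene, the 7 genes fell on both sides of the median. Over 17045 protein-coding genes with a region, the median widest region was 1356 bp and 2.82% of genes had one of 3000 bp or more, a common mark of a broad H3K4me3 domain. Pdgfra ranked 2317 (2121 bp), Nr2f2 2842 (2023 bp) and Insl3 7474 (1456 bp), all above the median. Cyp11a1 ranked 12605 (941 bp), Pdgfrb 13689 (818 bp), Lhcgr 13759 (812 bp) and Acta2 14152 (780 bp), all below it. The widest regions of Pdgfra, Nr2f2 and Insl3 held no annotated start. That of Insl3 is the one in Jak3, which cannot be assigned to either gene, and 43.9% of genes had one at least as wide. The region over the Insl3 TSS was 500 bp wide. None of the 10 genes had a single region of 3000 bp. Without a second library with regions at these genes, neighbours in this order, such as 818 and 812 bp, cannot be separated.

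Because regions were split by short gaps, those less than 1000 bp apart were also joined. Over the resulting 62654 domains, 1.63% reached 3000 bp. Nr2f2 then had a domain of 5576 bp from 3 regions, rank 78, and 0.124% of domains were at least as wide. Pdgfra had one of 3605 bp from 2 regions, rank 503 (0.804%). Insl3 had one of 2599 bp from 3 regions, rank 1797 (2.87%), and the other 4 genes kept single regions. Joined widths include the gaps between regions, and the 3 Insl3 regions are those of 500 bp each. Nr2f2 and Pdgfra thus passed 3000 bp only when neighbouring regions were joined.

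The order of these domains depended on the gap allowed. With gaps under 2000 bp, a setting chosen after seeing the data, 4.04% of 60185 domains reached 3000 bp. Pdgfra then spanned 8721 bp (rank 55), Nr2f2 stayed at 5576 bp (rank 354) and Insl3 reached 5086 bp (rank 482). Lhcgr had 2729 bp (rank 3108), made of its 2 intronic regions and not of the one at its TSS. Pdgfra and Nr2f2 exchanged places between the gap settings, and both were among the widest 1% under each.

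Length covered within 5 kb either side of the canonical TSS was also summed. It counts only the listed regions, so the gaps between split regions are left out. The median over 21747 protein-coding genes was 1232 bp, and 25.2% had none. Pdgfra had 4796 bp (0.759% of genes had at least as much), Insl3 4708 bp (0.855%) and Nr2f2 4592 bp (0.956%). Of these lengths, 1752 bp at Insl3, in a region that starts 3248 bp downstream of the TSS, and 364 bp at Nr2f2 came from regions tied to other genes. Counting only regions tied to the gene, an alternative added after seeing the data, left 4796 bp at Pdgfra, 4228 bp at Nr2f2 and 2956 bp at Insl3. Pdgfrb had 818 bp, Lhcgr 812 bp and Acta2 625 bp, and Star, Cyp11a1, Cyp17a1 and Hsd3b1 had 0. These 3 genes had more covered length than the other 7 by either count, and Insl3 was level with Pdgfra and Nr2f2 only when its neighbour's region was included.

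**Figure D3:**
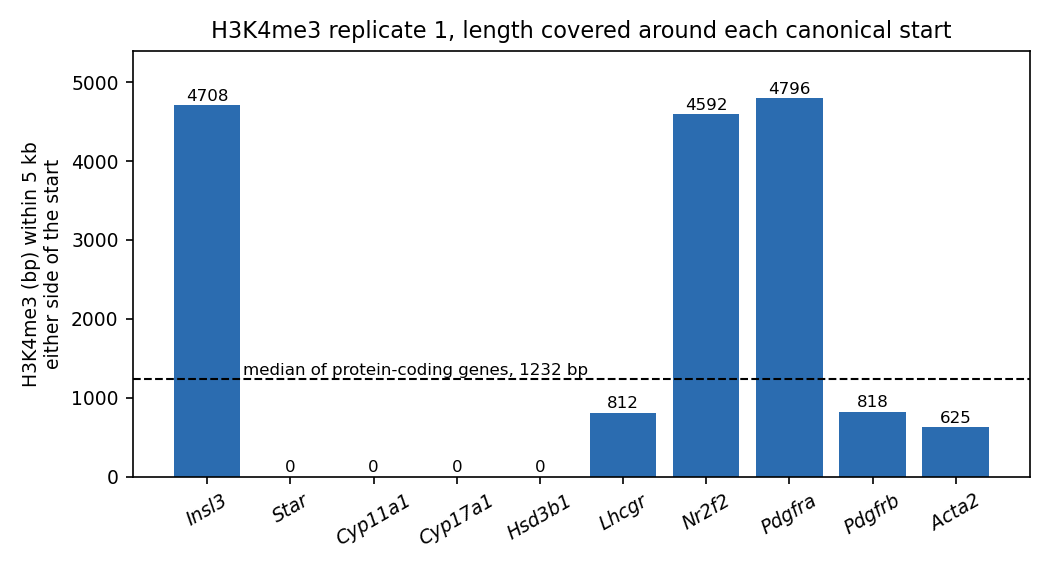
Length in bp covered by H3K4me3 regions of replicate 1 within 5 kb either side of the canonical TSS of each gene (bars, from 1 library and so without error bars), with the median of 21747 protein-coding genes as a dashed line at 1232 bp. All regions in the window count, including 1752 bp at Insl3 and 364 bp at Nr2f2 tied to other genes. Insl3, Nr2f2 and Pdgfra stand at 4592 bp or more, Lhcgr, Pdgfrb and Acta2 below the median, and the 4 genes of cholesterol entry and steroid conversion at 0.

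Base composition around the starts differed among the genes. RefSeq promoters (GRCm38.p6, 250 bases before to 50 after the start) were matched for 7 of the 10 genes: Insl3, Cyp11a1, Hsd3b1, Lhcgr, Nr2f2, Pdgfra and Acta2. The ratio of observed to expected CpG was 0.568 for Insl3, 0.472 for Lhcgr, 0.307 for Cyp11a1, 0.27 for Acta2, 0.256 for Pdgfra, 0.193 for Hsd3b1 and 0.109 for Nr2f2, and the median of 27025 promoters was 0.389. The table's start differs from the canonical one for some genes, by -6153 bp for Nr2f2 and -16559 bp for Cyp11a1 (negative is upstream), so these 2 values are not those of the marked or main start.

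In 1000 bp of GRCm39 centred on the canonical TSS, a window added after seeing the data, the order was led by Nr2f2 at 0.765, followed by Insl3 at 0.585, Pdgfra at 0.41, Lhcgr at 0.377, Acta2 at 0.284, Cyp11a1 at 0.206 and Hsd3b1 at 0.082. Nr2f2 alone of these 7 was CpG-rich, taken as a ratio of at least 0.6 and a GC content of at least 50%, as were 46.1% of protein-coding genes. H3K4me3 within 1000 bp of a TSS was listed at 97.5% of CpG-rich genes and at 50.2% of other genes. Of the other 6 genes with a composition here, Insl3, Pdgfra, Lhcgr and Acta2 had it and Cyp11a1 and Hsd3b1, with the lowest ratios, did not. Whether composition accounts for the mark at these genes was not tested.

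The same 4 motifs were counted in the 7 RefSeq promoters. GGGCGG was found in those of Insl3, Cyp11a1 and Lhcgr (35.9% of all promoters of this length), and CCAAT in those of Cyp11a1, Hsd3b1 and Nr2f2 (37.9%). TATAAA (14.2% of all promoters) and AAGGTCA (4.66%) were in none of the 7. For Cyp11a1 and Nr2f2 these windows lie far upstream of the canonical TSS, as given above, so their matches are not in the main promoter.

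Among the 10 genes, Star, Cyp11a1, Cyp17a1 and Hsd3b1 had neither H3K4me3 nor TAF4b within 1000 bp of a TSS. Of 16 further genes of cholesterol supply and steroid synthesis, 13 had H3K4me3 and 6 had TAF4b within 1000 bp of a TSS in replicate 1, beside 72.0% and 29.0% of all protein-coding genes. Among those with TAF4b were Fdx1 and Cyb5a, which serve steroid enzymes as electron carriers, Nr5a1, the steroidogenic factor, Srd5a1, a steroid reductase, and Creb3l2. The scores of these 5 ran from 7.44 (Nr5a1) to 37.2 (Srd5a1). Nr4a1, a nuclear receptor gene, had an intergenic peak at -7829 bp with a score of 41.2. Most of those named also serve cells other than Leydig cells. Fdxr had a peak in TAF4b replicate 2 only, at -57 bp with a score of 44.5. The widest H3K4me3 regions of this list were 1976 bp (Por) and 1836 bp (Nr4a1).

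Of 20 further genes of interstitial progenitors, fibroblasts, peritubular and mural cells, 17 had H3K4me3 and 3 had TAF4b within 1000 bp of a TSS. Among the genes with TAF4b were Thy1 (score 7.94) and Maf (10.4), both below the median score of 14.9 over all TAF4b peaks of replicate 1. Vim, the gene of the filament protein vimentin, had a region of 2918 bp. Over all protein-coding genes the shares by this rule were 72.0% for H3K4me3 and 29.0% for TAF4b, and neither list was tested against them.

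Markers of the other cells of the gonad were counted in the same way. H3K4me3 was within 1000 bp of a TSS at 5 of 8 endothelial, 2 of 8 macrophage, 10 of 12 Sertoli, 10 of 12 germ cell and 10 of 12 housekeeping genes. TAF4b was there at 0, 0, 0, 7 and 7 of them. The germ cell genes with TAF4b were Ddx4, Dazl, Dnd1, Piwil2, Mael, Tdrd9 and Sall4, with scores from 9.43 (Sall4) to 23.3 (Dazl and Tdrd9). The germ cell and housekeeping lists thus had the same count for TAF4b, beside 29.0% of all protein-coding genes, and no difference between lists was tested. The Sertoli cell genes had regions up to 3764 bp at Wt1, and their 1 TAF4b row, at Sox8 (score 8.44), lay 2845 bp from the TSS. In H3K4me3 replicate 2, 3 of 12 Sertoli genes (Amh, Wt1 and Gata4) and 1 of 12 germ cell genes (Sall4) had a row, beside 7.46% of protein-coding genes and 0 of the 10. Of the further steroid genes, 1 of 16 (Scarb1) had a row there, and the interstitial and mural, endothelial, macrophage and housekeeping lists had none. Whether other cells in the sorted pool contribute to the mark at the 10 genes was not tested.

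**Figure D4:**
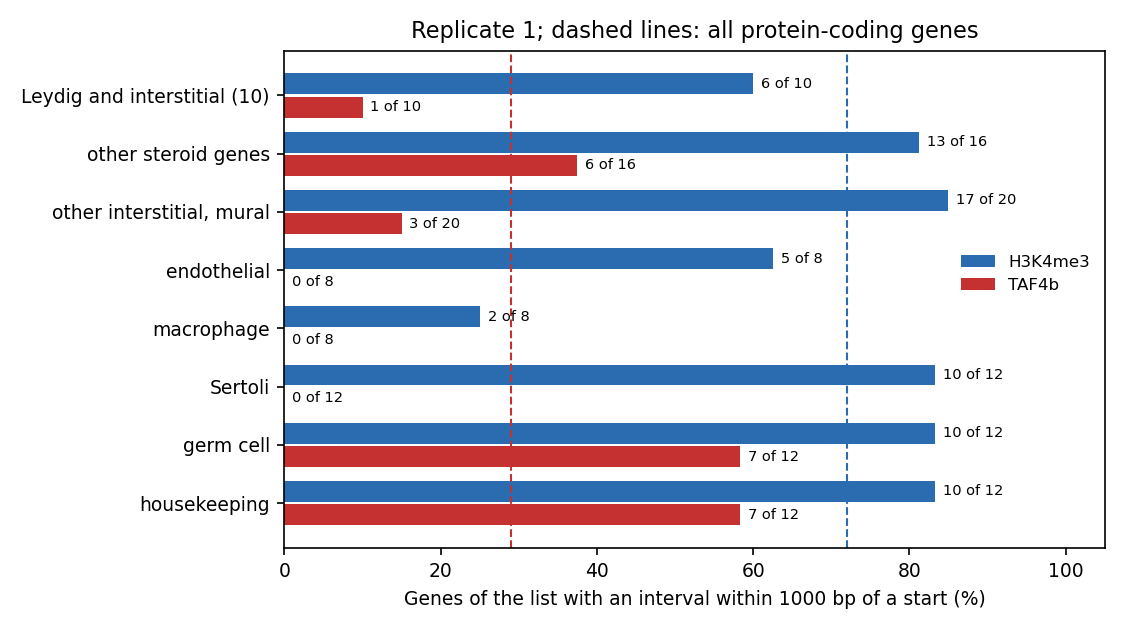
Percent of the genes of each list with an H3K4me3 region (blue) or a TAF4b peak (red) within 1000 bp of an annotated TSS in replicate 1, with counts beside the bars. Dashed lines give the share of all protein-coding genes, 72.0% for H3K4me3 and 29.0% for TAF4b; the 10 Leydig and interstitial genes reach 6 of 10 and 1 of 10, and the germ cell and housekeeping lists 7 of 12 for TAF4b.

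How much replicate 2 could have shown was read from the overlap of the lists. Of the 621 H3K4me3 regions of replicate 1 that scored at least 211.7, the score of the strongest Nr2f2 region, 165 (26.6%) overlapped a region of replicate 2. When all regions were ranked by score into 10 bins, the share in the bins of the other 22 regions was between 0.0703% and 13.8%. Among TAF4b peaks in the score bin of the Nr2f2 peak, out of 10 such bins, 27 of 848 (3.18%) overlapped a peak of replicate 2. At these scores most intervals of replicate 1 were not listed again anywhere in the genome. For genes with an interval in replicate 1, its absence from replicate 2 is thus what most intervals of its score showed. Genes without an interval in replicate 1 have no score to compare. The nearest replicate 2 intervals lay between 38.8 kb (Star) and 2080 kb (Nr2f2) away for H3K4me3, with a median of 302 kb over protein-coding genes. For TAF4b they lay between 88.1 kb (Cyp17a1) and 3810 kb (Acta2) away, with a median of 640 kb.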

How the data were processed

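CUT&RUN intervals for TAF4b and H3K4me3, 2 replicates each, were used as deposited, 1 list per library. The submitters' processing notes name bcl2fastq 2.20, Trim Galore 0.5.0, FastQC 0.11.5, Bowtie2 2.3.0, SAMtools 1.9, HOMER 4.10 and GRCm39, and the file headers of the H3K4me3 lists name Ensembl 103. The peak caller and its threshold are not given in the sources used here. The peak score is the authors' value, deposited with no stated normalization, and was used only within 1 list. Start, end, distance and class columns are the authors' deposited values. The TAF4b lists name no build, and GRCm39 was taken for them because 98.9% and 99.2% of their transcripts matched GENCODE M39 (98.6% and 98.8% for H3K4me3).

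Samples were grouped by antibody from the titles. The 10 genes and the 7 other gene lists, with 88 genes, were chosen with earlier results of these data known. Named genes were all 10 and, from each other list, those with a TAF4b row and the 2 with the widest H3K4me3 region; some that the rule selects are not reported here. Transcripts were joined to genes through GENCODE M39, and the canonical TSS is the one tagged so there. Widths are end minus start, and overlaps needed 1 bp. Tables were made with Python 3.11.15, pandas 2.3.3 and numpy 2.4.6 and tested on simulated intervals. No statistical test was run, because 1 list per antibody holds all rows of these genes. Percentages of genes describe these libraries, and their precision across animals is unknown. Alternatives changed the rule tying rows to genes, the score, the replicate and the joining gap.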

Additional observations from a re-analysis of the deposited data

How the results depend on the processing

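The count of the 10 genes with H3K4me3 was 7 by any annotated row, 5 by the promoter class, 6 by deposited distance within 1000 bp, 6 by position within 1000 bp of a TSS and 6 among the higher-scoring 50% of each list. Leaving out a replicate gave 0 to 7, with 0 when replicate 1 was left out. The count with TAF4b was 1 by any row, 0 by the promoter class, 0 by deposited distance within 1000 bp, and 1 by position and in the higher-scoring 50%. For both antibodies, the shares of all protein-coding genes by any row, promoter class and position are given above. No such share is given for deposited distance or the higher-scoring 50%, so those counts have no background beside them. Leaving out a replicate gave 0 to 1, with 0 when replicate 1 was left out. Every row of the 10 genes thus comes from replicate 1 of either antibody. The joining gap of 2000 bp, the 1000-bp composition window and the count of only those regions tied to a gene were chosen after seeing the data. Joining changes the set that ranks are taken over by construction, and it exchanged the order of Pdgfra and Nr2f2. No paired analysis was possible because the results come from no test. The unknown depth of replicate 2 limits what its empty rows show.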
